A study of Mus musculus with 6 samples.

Results

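The genes of the mitochondrial ribosome were followed in cardiomyocytes (CMs) that carried an extra supply of serum response factor (SRF). Every gene whose symbol is Mrpl or Mrps followed by digits, with or without a closing letter, was taken, and pseudogenes were left out. This gave 76 genes of the 23337 in the count table, 47 of them Mrpl (large subunit) and 29 Mrps (small subunit). The symbol alone decided which genes were members, and no measured value entered that rule. The set itself was chosen with earlier results of these data known. All 76 passed the filter on low counts and were among the 13754 genes tested.

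Wildtype mice received an adeno-associated virus (AAV9) at postnatal day 1, at a dose of 5e8 vector genomes per gram. In the SRF-OE group the cardiac troponin T (cTNT) promoter drove SRF joined by a 2A peptide to GFP, and the control group (GFP) received AAV-GFP, so CMs of both groups were transduced and expressed GFP. Hearts were digested at day 14, GFP-positive cells were sorted, and polyA RNA was amplified and sequenced. The dose gave a mosaic heart in which only part of the CMs carried the virus. The labels list 6 libraries, but the column headed with the name of the SRF-OE replicate 1 library held gene lengths, so 2 SRF-OE and 3 GFP libraries had counts. Nothing in the labels says how many mice stood behind a library, so the tests measure the spread between these libraries, which may be partly technical.

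The mitochondrial ribosome makes the few proteins that mitochondrial DNA encodes, all of them subunits of the oxidative phosphorylation machinery. Its protein subunits are encoded in the nucleus, translated in the cytosol and imported, and they assemble on ribosomal RNAs made inside the organelle. Many are homologues of bacterial ribosomal proteins and the rest are found in mitochondria only. Heart muscle depends on this machinery for its ATP, and inherited defects of several of these genes, MRPL3 and MRPL44 among them, cause cardiomyopathy in humans.

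Total counts per library ran from 14137433 to 23159631, and single members had between 230 and 10510 counts in a library. Srf, the overexpressed gene, had 360 and 748 CPM (counts scaled to a common library size, after TMM) in the SRF-OE libraries against 338, 67.3 and 85.1 CPM in GFP libraries 1, 2 and 3. The library labelled GFP1 thus went against its label, and the results of the members and the lists are given with all 5 libraries and without that library. The column headed with an SRF-OE name held lengths, and the column of gene symbols was headed Chr. A shift of the headings by 1 column would make the column headed GFP1 an SRF-OE library. This was not tested and cannot be told apart here from a mislabelled or mixed library. The groups named here are those of the headings. Such a shift would change the group of that library alone, so the comparison without it keeps its groups either way, whereas replicate numbers may not hold. The Srf log2 fold change was 1.76 ± 0.71 (SE) with 5 libraries (edgeR quasi-likelihood test, adjusted p = 0.357) and 2.87 ± 0.37 without GFP1 (adjusted p = 0.0442). Xist and Y-linked genes marked both libraries numbered 2 as female and the other 3 as male. The defining CM genes were abundant in every library, with 40500 to 68800 CPM of Myh6, and the 9 CM markers together had 93110 and 84517 CPM in SRF-OE against 99124, 127777 and 147651 CPM in GFP. Markers of other cardiac cells were present at low levels. Their sums in SRF-OE replicates 2 and 3 were 971 and 379 CPM for 10 endothelial genes (395 to 745 CPM in GFP), 917 and 459 CPM for 9 fibroblast genes (333 to 496 CPM in GFP), 263 and 226 CPM for 7 smooth muscle and pericyte genes (95.1 to 227 CPM in GFP), 33.9 and 13.6 CPM for 7 leukocyte genes (9.95 to 24.9 CPM in GFP) and, for the erythroid gene Alas2, 1.5 and 1.4 CPM (0.238 to 0.459 CPM in GFP).

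Promoters of the members were looked at for the letters that regulators of nuclear mitochondrial genes recognise, since genes of this machinery are known to share such sites. RefSeq starts (GRCm38.p6) matched 67 of the 76 members, and windows from 250 bases before to 50 bases after the start were searched on both strands. Below, 3 of them are printed from 150 bases before to 30 bases after the start. They carry the same ETS letters, while the log2 fold changes (SRF-OE over GFP) of their genes differ. Mrpl34 was among the lowest members (-0.51), Mrps18a in the middle (-0.31) and Mrpl33 the highest (0.22 ± 0.19, SE). Capitals mark CCGGAAG (the core bound by ETS factors such as GABP), TGCGCA (the core of NRF1 sites) and AAGATGG (the core of YY1 sites), or their reverse complements.
Mrpl34, chr8:71464776-71464955, plus strand: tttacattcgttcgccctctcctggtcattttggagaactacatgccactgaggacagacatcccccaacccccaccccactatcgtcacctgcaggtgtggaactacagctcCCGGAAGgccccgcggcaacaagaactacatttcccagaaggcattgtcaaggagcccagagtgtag
Mrps18a, chr17:46110854-46111033, plus strand: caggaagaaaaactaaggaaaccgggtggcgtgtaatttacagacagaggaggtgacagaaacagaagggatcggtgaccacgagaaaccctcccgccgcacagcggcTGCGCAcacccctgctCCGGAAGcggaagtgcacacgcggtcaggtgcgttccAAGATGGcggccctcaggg
Mrpl33, chr5:31613801-31613980, plus strand: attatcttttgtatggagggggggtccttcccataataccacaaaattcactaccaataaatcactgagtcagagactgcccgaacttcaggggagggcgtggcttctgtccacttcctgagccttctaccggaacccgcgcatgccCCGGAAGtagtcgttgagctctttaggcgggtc

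The ETS letters were in 23 of the 67 member promoters (34.3%), against 9.12% of all 27025 promoters and 17.1% of the 9740 promoters of genes tested here. The NRF1 core was in 19 (28.4%, against 8.06% and 14.1%) and the YY1 core in 13 (19.4%, against 6.48% and 6.93%). A GC box (GGGCGG) was in 33 (49.3%, against 35.9% and 63.8%) and TATAAA in 4 (5.97%, against 14.2% and 7.18%). The CArG box, the letters that SRF binds, was in 0 of the 67 windows and in 1.57% of all promoters, which says only that these letters are absent from these windows. Members with the ETS letters had a median log2 fold change (SRF-OE over GFP) of -0.19 and members without them -0.27. For the NRF1 core these medians were -0.24 and -0.25, and for the YY1 core -0.31 and -0.24. Without GFP1 they were -0.22 and -0.29 for the ETS letters, -0.26 and -0.27 for the NRF1 core and -0.36 and -0.26 for the YY1 core.

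The members had lower values in SRF-OE than in GFP CMs as a group, by a small amount each. The median log2 fold change of the 76 was -0.25, against 0.03 for all genes tested, and 69 of the 76 had a value below 0, against 46.7% of all genes. None of the 76 passed the adjusted threshold of 0.05 in either direction (smallest adjusted p = 0.353, edgeR quasi-likelihood test), where 0 of all 13754 genes passed in either direction (0% of all). At an unadjusted p under 0.05, 25 members were lower in SRF-OE, 32.9% of them, against 7.59% of all genes, and 0 were higher, against 6.35% of all genes. Both SRF-OE libraries lay below all 3 GFP libraries in 57 members (75.0%), against 17.3% of all genes, and both lay above all 3 in 0 members, against 16.1% of all genes. In bulk libraries such as these, fewer CMs in the sort and less of these RNAs per CM cannot be told apart. The lower CM marker sums in SRF-OE moved in the same direction as the members, and their part in the result was not tested.

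Without GFP1 the members had a median log2 fold change of -0.26, against 0.04 for all genes, and 65 of 76 had a value below 0, against 46.8%. Again 0 passed the adjusted threshold (smallest adjusted p = 0.0623, edgeR), whereas 0.97% of all genes passed as lower and 1.98% as higher. At an unadjusted p under 0.05, 31 members were lower, against 14% of all genes, and 1 was higher (Mrpl33), against 14.4% of all genes. Both SRF-OE libraries lay below both remaining GFP libraries in 57 members, against 29.8% of all genes. In 39 of the 76 members GFP1 lay above both SRF-OE libraries and below both other GFP libraries, against 1796 of all 13754 genes tested. It lay below both other GFP libraries in 43 members, against 5390 of all genes.

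How far the members sit below 0 depends on the scaling, whereas their distance from the other genes hardly does. TMM factors were 1.087 and 1.075 in SRF-OE and 1.013, 0.9418 and 0.8969 in GFP. When library totals alone were used, the median of all genes shifted from 0.03 to 0.21, the median of the members was -0.06, 50 of the 76 remained below 0, against 27.3% of all genes, and 71 lay below the median of all genes, compared with 72 under TMM. On that scale both SRF-OE libraries lay below all GFP libraries in 25 members, against 7.4% of all genes, and 2 members were lower at an unadjusted p under 0.05, against 2.53% of all genes. As a share of all counts with no scaling, the 76 genes took 0.642% and 0.626% in SRF-OE and 0.681%, 0.653% and 0.678% in GFP, with no overlap between the groups. The differences below are on the TMM scale.

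**Figure D1:**
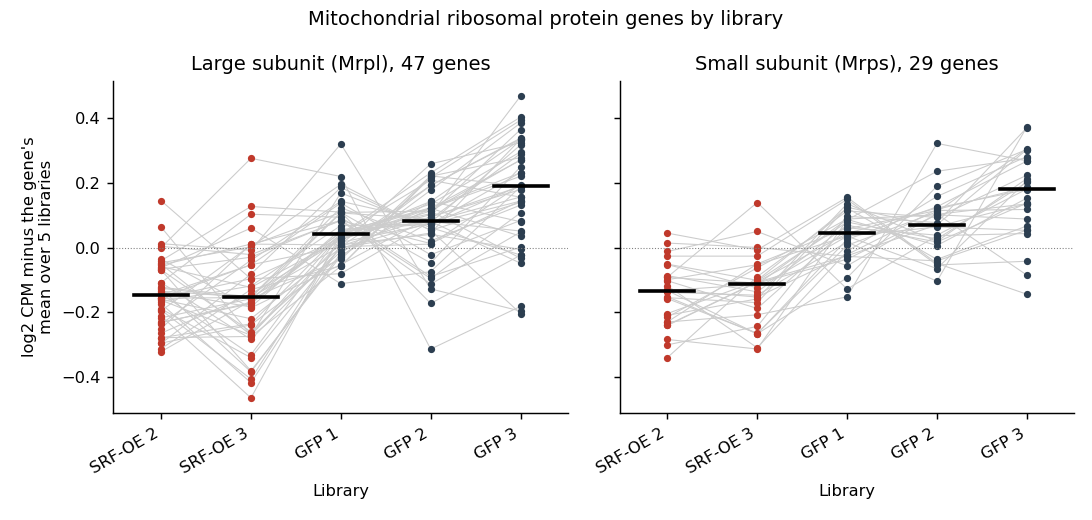
Each point is 1 gene in 1 library, as log2 CPM (TMM-scaled) minus that gene's mean over the 5 libraries, for 47 large subunit (left) and 29 small subunit genes (right). Grey lines join the values of a gene and black bars are medians. The medians of both SRF-OE libraries lie below 0 and those of all 3 GFP libraries above 0 in both panels, with GFP 3 highest.

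Both subunits were lower to a like degree. The 47 Mrpl genes had a median log2 fold change of -0.26, with 44 below 0 and 17 lower at an unadjusted p under 0.05, and the 29 Mrps genes had a median of -0.24, with 25 below 0 and 8 lower at that p, against 46.7% and 7.59% of all genes. Without GFP1 the medians were -0.27 and -0.26. Summed over the large subunit, the level was 4094 and 4001 CPM in SRF-OE against 4687, 4847 and 5301 CPM in GFP, and the groups did not overlap. Summed over the small subunit, it was 1817 and 1824 CPM in SRF-OE against 2043, 2086 and 2263 CPM in GFP, again with no overlap. The ratio of the large to the small sum was 2.25 and 2.19 in SRF-OE and 2.29, 2.32 and 2.34 in GFP, so that SRF-OE libraries had slightly less of the large subunit RNAs per small subunit RNA. With 2 libraries against 3, an exact permutation test of a single value cannot go below p = 0.1, and no p is given for these sums.

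The symbol does not always give the place of the protein. Mrps18a and Mrps30 are known to sit in the large subunit, and Mrps36 is now known as a subunit of the oxoglutarate dehydrogenase complex rather than of the ribosome. Grouped by place, 49 large subunit genes had a median of -0.27 and 26 small subunit genes a median of -0.23. The 45 members with a bacterial homologue had a median of -0.24 and the 30 found in mitochondria only a median of -0.30, with 39 and 29 values below 0. Without GFP1 these medians were -0.26 and -0.28.

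The precision of a single member was limited. The standard error of the log2 fold change ran from 0.11 to 0.19 with a median of 0.13, so a typical difference of the members is about as large as a pair of standard errors. The SRF-OE libraries differed little from each other, by a median of 0.09 on the log2 scale over the members, and 38 of 76 were higher in replicate 2. The range over the 3 GFP libraries had a median of 0.20, and GFP replicate 3 had the highest sum of the members, 7565 CPM, against 6731 and 6933 CPM in GFP replicates 1 and 2. The sums in SRF-OE replicates 2 and 3 were 5911 and 5826 CPM, giving means of 5868 ± 60.2 CPM (SD, n = 2) and 7076 ± 435 CPM (SD, n = 3).

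**Figure D2:**
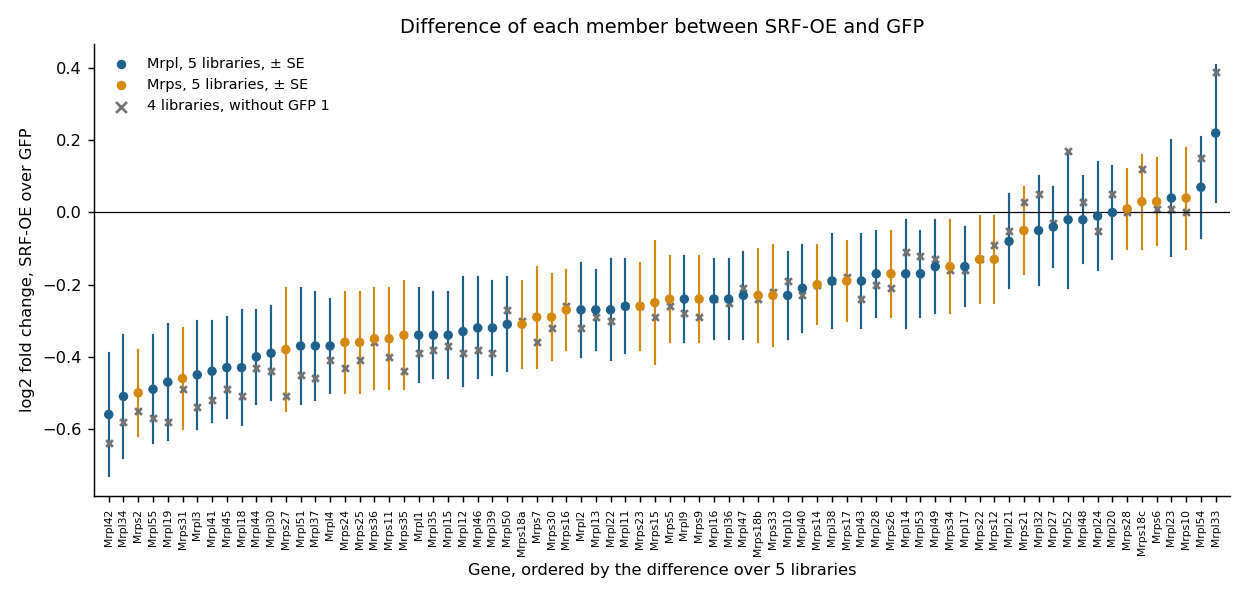
Log2 fold change (SRF-OE over GFP) of each of the 76 genes with 5 libraries, ordered by size, with bars of ± 1 SE, and with 4 libraries as grey crosses. Values run from -0.56 (Mrpl42) to 0.22 (Mrpl33), and 69 lie below 0.

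Mrpl42, a large subunit protein found in mitochondria only, had the lowest log2 fold change and the highest level per deposited gene length. Its levels were 355 and 298 CPM in SRF-OE against 423, 482 and 543 CPM in GFP. Every SRF-OE value lay below every GFP value, with a log2 fold change of -0.56 ± 0.17 (SE; adjusted p = 0.353, edgeR), and of -0.64 ± 0.15 without GFP1 (adjusted p = 0.066). DESeq2 called it with 5 libraries (adjusted p = 0.0222), in a run whose independent filtering gave an adjusted p to 10 of the 76 members and to 1079 genes, of which 19.7% were called lower.

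Among other large subunit genes, Mrpl34, a homologue of a small bacterial protein, had 77.9 and 67.2 CPM in SRF-OE against 90.8, 95.5 and 123 CPM in GFP. The log2 fold change was -0.51 ± 0.17 (-0.58 without GFP1), with no overlap of the groups. Mrpl55, a mitochondria-only protein, had 112 and 94.6 CPM against 127, 151 and 158 CPM (log2 fold change -0.49 ± 0.15, and -0.57 without GFP1). Its groups did not overlap either. Mrpl19, another homologue of a bacterial protein, had 38.2 and 38.3 CPM against 44.5, 53.8 and 60.8 CPM (-0.47 ± 0.16, and -0.58 without GFP1). In Mrpl19, 36.0% of the exon bases overlap exons of Gcfc2 on the opposite strand.

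Genes with known tasks in the large subunit stood close to these. Mrpl3, whose protein reaches towards the catalytic centre, had 98.1 and 102 CPM in SRF-OE and 118, 136 and 157 CPM in GFP, with a log2 fold change of -0.45 ± 0.15. Mrpl45, which lies at the exit of the peptide tunnel and holds the ribosome to the inner membrane, had 93.6 and 96.4 CPM against 117, 122 and 146 CPM (-0.43 ± 0.14). Mrpl44, which resembles a ribonuclease, had 58.3 and 65.0 CPM against 78.4, 77.4 and 89.0 CPM (-0.40 ± 0.13). In these 3 genes both SRF-OE libraries lay below every GFP library, and without GFP1 the log2 fold changes were -0.54, -0.49 and -0.43. Mrpl41 had 60.6 and 54.6 CPM against 69.2, 78.9 and 87.1 CPM (-0.44 ± 0.14, and -0.52 without GFP1). It was also separate between the groups. Mrpl18 and Mrpl30, homologues of bacterial proteins, had log2 fold changes of -0.43 ± 0.16 and -0.39 ± 0.13 (-0.51 and -0.44 without GFP1) with no overlap.

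Mrpl12 encodes the protein of the flexible stalk to which elongation factors bind, and it was among the members with the highest level. It had 263 and 233 CPM in SRF-OE against 283, 299 and 353 CPM in GFP. All GFP values were higher than both SRF-OE values, although the gap between 263 and 283 CPM was smaller than the spread within each group. The log2 fold change was -0.33 ± 0.15 (adjusted p = 0.375, edgeR) and -0.39 ± 0.14 without GFP1.

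In the small subunit, Mrps2, a homologue of a bacterial protein, had the smallest unadjusted p of all members. Its levels were 49.5 and 48.5 CPM in SRF-OE against 63.9, 70.9 and 72.9 CPM in GFP. The SRF-OE values were almost equal and lay well below the GFP values, with a log2 fold change of -0.50 ± 0.12 (adjusted p = 0.353, edgeR) and of -0.55 ± 0.12 without GFP1 (adjusted p = 0.0623). Mrps31, a mitochondria-only protein, had 44.9 and 46.7 CPM against 59.1, 58.3 and 71.4 CPM, with no overlap (-0.46 ± 0.14, and -0.49 without GFP1). Mrps25, also found in mitochondria only, had 43.2 and 40.1 CPM against 48.4, 52.0 and 59.5 CPM (-0.36 ± 0.14, and -0.41 without GFP1). In Mrps25, 69.8% of the exon bases overlap exons of Nr2c2 on the opposite strand. Mrps36 had 21.2 and 25.2 CPM against 29.0, 28.6 and 31.3 CPM, and its groups were separate as well (-0.35 ± 0.14, and -0.36 without GFP1).

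The 3 Mrps18 paralogs are related to the same bacterial protein, although Mrps18a and Mrps18b, which do not take its place in the ribosome, are counted above among those found in mitochondria only. Mrps18a, the large subunit form, had 78.4 and 81.2 CPM in SRF-OE and 99.5, 91.8 and 105 CPM in GFP, with no overlap and a log2 fold change of -0.31 ± 0.12. Mrps18b had 26.5 and 30 CPM against 32.4, 31.9 and 35.2 CPM, also without overlap (-0.23 ± 0.13). Mrps18c, which keeps the place of the bacterial protein, had 65.4 and 63.1 CPM against 70.6, 61.3 and 57.4 CPM, and its groups overlapped (0.03 ± 0.13). Without GFP1 the log2 fold changes were -0.30, -0.24 and 0.12. Whether the paralogs differ from each other in their response was not tested.

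A few members had values at or above those of the controls. Mrpl33, a short large subunit protein with a bacterial homologue, had 195 and 236 CPM in SRF-OE against 227, 157 and 172 CPM in GFP. The library labelled GFP1 lay between the SRF-OE values, and the other GFP libraries lay below both. The log2 fold change was 0.22 ± 0.19 (adjusted p = 0.595, edgeR) with 5 libraries and 0.39 ± 0.14 (adjusted p = 0.135) without GFP1. Mrpl54 had 67.6 and 75.9 CPM against 75.0, 61.7 and 68.4 CPM (0.07 ± 0.14, and 0.15 ± 0.13 without GFP1). Mrps10, Mrpl23 and Mrps6 had log2 fold changes of 0.04 ± 0.14, 0.04 ± 0.16 and 0.03 ± 0.12. The groups of all 4 overlapped, and each difference was under its standard error with 5 libraries. Without GFP1 the last 3 had values of -0.0046, 0.01 and 0.01.

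**Figure D3:**
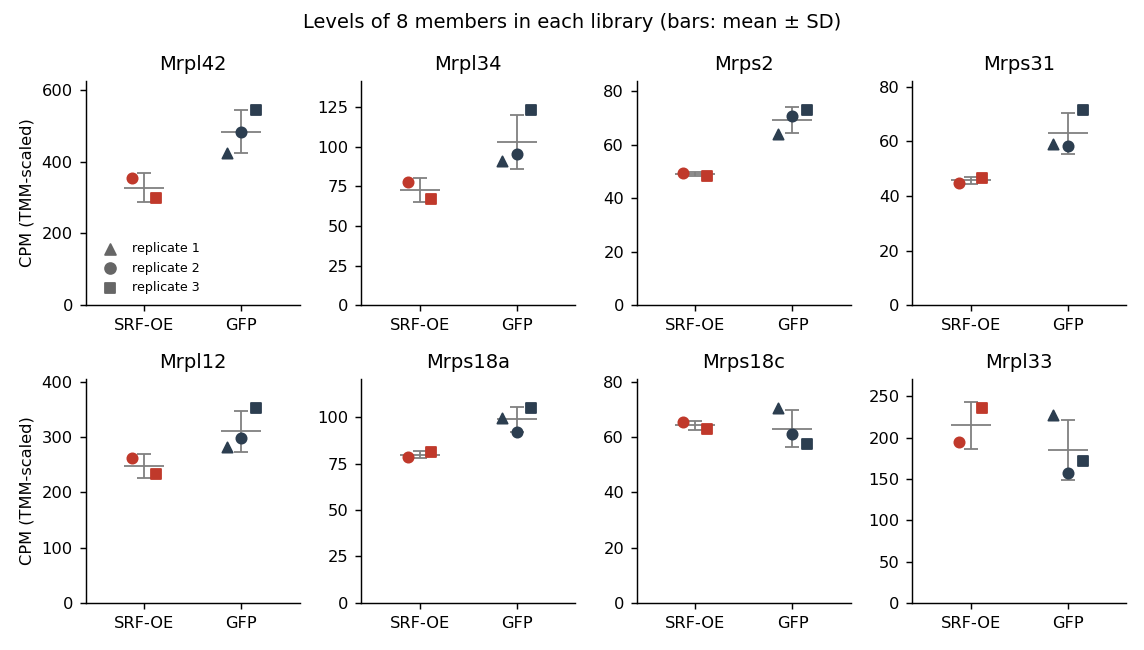
TMM-scaled CPM of 8 genes in each library, with triangles for replicate 1, circles for replicate 2 and squares for replicate 3, and grey bars for mean ± SD (SRF-OE n = 2, GFP n = 3). SRF-OE lies below every GFP library in the first 6 genes and overlaps GFP in Mrps18c and Mrpl33.

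Levels per length spread widely around a common value. In GFP the mean level per kilobase of deposited gene length had a median of 65.4 CPM per kb. Of the 76 members 50 lay within 2-fold of it, and the highest was 82.5 times the lowest. The deposited lengths differ from the exon lengths in the GENCODE M21 annotation. Mrpl33 has 466 bases in the deposited table and 7326 in the annotation, Mrpl42 has 666 and 3682, and Mrpl41 has 2423 and 888. The order given here is that of the deposited lengths. With the annotated ones Mrpl33 would not stand before Mrpl12. Mrpl12 had more CPM (means in GFP of 311 against 185) over fewer annotated bases (1532 against 7326). The rest of the order was not tested with the annotated lengths. Mrpl42 led with 725 CPM per kb, followed by Mrpl33 (398), Mrpl12 (328), Mrpl30 (263) and Mrpl18 (214). Mrps25 (8.79 CPM per kb), Mrpl17 (8.92) and Mrpl19 (10.6) were lowest, and these are the genes with the longest deposited models, 6065, 6712 and 5000 bases. In Mrpl17, a homologue of a bacterial protein, the level was 55.1 and 52.7 CPM in SRF-OE against 58.4, 62.4 and 58.8 CPM in GFP. These groups did not overlap, and the log2 fold change was -0.15 ± 0.11 (-0.16 without GFP1, and 0.03 with library totals in place of TMM). In SRF-OE, Mrpl42 had 491 and Mrpl33 had 462 CPM per kb, so by the deposited lengths alone the leading pair was almost level there.

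By the lengths in the deposited table, the difference between the groups was larger in the members with longer gene models. The annotated exon lengths differ, as said above, and by them long members were not all lower. Among the longest by annotation are Mrps35 (8631 bases, log2 fold change -0.34) and Mrpl15 (8487, -0.34). Mrpl48 (8152, -0.02), Mrps10 (8079, 0.04) and Mrpl33 (7326, 0.22) are also among them. Whether the order as a whole holds with the annotated lengths was not tested. In the 26 shortest members (407 to 902 bases) the median log2 fold change was -0.16, in the 25 of middle length (938 to 1411 bases) -0.23, and in the 25 longest (1419 to 6712 bases) -0.34. In the longest, 25 of 25 had a value below 0 and 24 had both SRF-OE libraries below every GFP library, compared with 20 and 13 of the 26 shortest and with 46.7% and 17.3% of all genes. Without GFP1 the medians were -0.12, -0.24 and -0.39. Over the 76 members, Pearson's r between log2 length and the log2 fold change was -0.43, given as a description since the points share their libraries. Over all genes tested, the medians were 0.08 for models under 1000 bases, 0.05 from 1000 to 2000, 0.01 from 2000 to 4000 and 0.03 from 4000 bases on, and without GFP1 they were 0.14, 0.08, 0.02 and 0.02. Mrpl34, Mrpl42 and Mrpl55 stood apart from this order, with short deposited models (646, 666 and 780 bases) and log2 fold changes among the lowest.

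**Figure D4:**
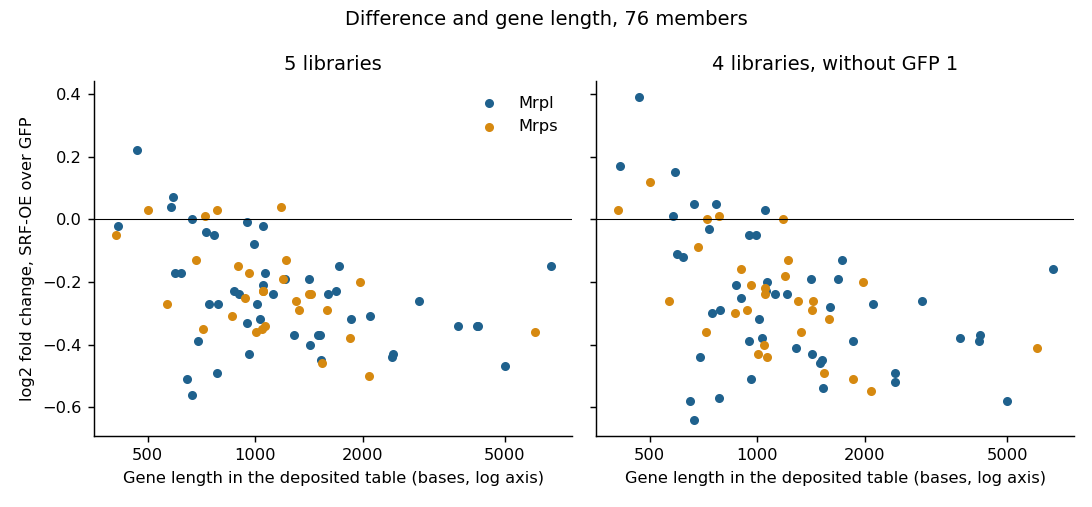
Log2 fold change (SRF-OE over GFP) against gene length as deposited (log axis), for the 47 Mrpl (blue) and 29 Mrps genes (orange), with 5 libraries on the left and without GFP 1 on the right. By these lengths, values near or above 0 are mostly those of genes under 1000 bases, and the 25 longest all lie below 0.

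Exons of 32 members overlap those of another gene in the GENCODE M21 annotation, in 17 by over 10% of their bases. The amplification kit does not mark strand, so reads from the overlapping parts cannot be assigned by strand. The 59 members with at most 10% overlap had a median log2 fold change of -0.26 with 5 libraries and -0.27 without GFP1. Of the named genes, this also touches Mrps18b (30.5%, with Gm16279), Mrps18c (23.2%, with Gm43511), Mrps6 (19.9%, with Gm49711), Mrpl12 (13.1%, with Gm16755) and Mrpl18 (10.1%, with Tcp1).

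The mitochondrial ribosome holds 7 further proteins whose symbols follow another pattern. All 7 had log2 fold changes below 0 with 5 libraries, against 46.7% of all genes. Without GFP1 these were 3 of the 7, against 46.8% of all genes. Both SRF-OE libraries lay below every GFP library in 3 of the 7, against 17.3% of all genes. Ptcd3, an RNA-binding protein of the small subunit, had 134 and 141 CPM in SRF-OE against 180, 222 and 223 CPM in GFP. The groups did not overlap, and the log2 fold change was -0.60 ± 0.14 (adjusted p = 0.353, edgeR) with 5 libraries. Without GFP1 it was -0.69 ± 0.11, and Ptcd3 passed the threshold (adjusted p = 0.0484, edgeR), where 0.97% of all genes passed as lower. With upper quartile scaling in place of TMM, the genes passing as lower without GFP1 fell from 130 to 9. DESeq2 called Ptcd3 with 5 libraries (adjusted p = 0.0173), in the run described for Mrpl42 that called 19.7% of 1079 genes lower. Without independent filtering DESeq2 called 29 of 21558 genes lower (0.135%). Dap3, the GTP-binding protein of the small subunit, had 81.6 and 78.8 CPM against 98.1, 103 and 110 CPM, with no overlap (-0.37 ± 0.12, and -0.41 without GFP1). Ict1, a peptidyl-tRNA hydrolase built into the large subunit, had a log2 fold change of -0.16 ± 0.12 (-0.20 without GFP1). Aurkaip1, Chchd1, Gadd45gip1 and Mrp63 had values between -0.08 and -0.01 with 5 libraries and between 0.02 and 0.11 without GFP1. The median of the 7 was -0.08 with 5 libraries and 0.02 without GFP1.

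Translation factors of the mitochondrion had the lowest median of the mitochondrial lists. All 14 measured had log2 fold changes below 0, with a median of -0.47 (-0.56 without GFP1), and 9 were lower at an unadjusted p under 0.05, against 7.59% of all genes. Both SRF-OE libraries lay below every GFP library in 12 of them, against 17.3% of all genes. Lrpprc, which binds and stabilises mitochondrial mRNAs, had 223 and 202 CPM in SRF-OE against 271, 367 and 430 CPM in GFP. Its groups were separate, with a log2 fold change of -0.74 ± 0.21 (adjusted p = 0.353, edgeR). Without GFP1 Lrpprc passed at -0.90 ± 0.14 (adjusted p = 0.0473, edgeR), where 0.97% of all genes passed as lower. DESeq2 called it with 5 libraries (adjusted p = 0.021), in the run described for Mrpl42 that called 19.7% of its genes lower. Tufm, the elongation factor that brings tRNAs to the ribosome, was the other factor to pass without GFP1, at -0.70 ± 0.11 (adjusted p = 0.0484), and is named here after its value was seen. It had 148 and 155 CPM against 187, 242 and 253 CPM, with no overlap. Taco1, an activator of the translation of a cytochrome oxidase subunit, had a value of -0.67 ± 0.23 (-0.80 without GFP1). The values closest to 0 were those of Mtrf1, a release factor, at -0.11 ± 0.16 and of Mtif3, an initiation factor, at -0.12 ± 0.14 (-0.12 and -0.09 without GFP1).

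Factors that assemble the ribosome or modify its RNA had a median of -0.23 over 25 genes (-0.25 without GFP1), with 22 below 0. Mrm1, a methyltransferase of the large ribosomal RNA, had 36.9 and 31.3 CPM in SRF-OE against 40.6, 61.7 and 61.4 CPM in GFP. Its log2 fold change was -0.68 ± 0.22 (adjusted p = 0.353, edgeR). Without GFP1 it passed at -0.85 ± 0.15 (adjusted p = 0.0496, edgeR), where 0.97% of all genes passed as lower. Fastkd2, an RNA-binding protein, had a value of -0.55 ± 0.15 (-0.63 without GFP1), and Mpv17l2 and Ybey had 0.08 ± 0.14 and 0.07 ± 0.26 (0.10 and 0.08 without GFP1).

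The 19 mitochondrial aminoacyl-tRNA synthetases and their partners had a median of -0.25 (-0.30 without GFP1), with 17 below 0. Fars2, which loads phenylalanine, had a value of -0.48 ± 0.13 (-0.55 without GFP1). Ears2 and Lars2, which load glutamate and leucine, went the other way with 0.71 ± 0.20 and 0.71 ± 0.27 (adjusted p = 0.353 and 0.357, edgeR), and with 0.74 ± 0.22 and 0.82 ± 0.25 without GFP1 (adjusted p = 0.0996 and 0.101). DESeq2 called Lars2 with 5 libraries (adjusted p = 0.0173), in the run described for Mrpl42, which called 11 of 1079 genes higher. Lars2 had 13500 and 10100 CPM in SRF-OE against 8280, 6500 and 6920 CPM in GFP, far more than any other gene of the list. Whether all of these reads come from the mRNA of the synthetase was not tested, so its difference may not be one of that mRNA. Genes for the upkeep and transcription of mitochondrial DNA had a median of -0.22 over 7 genes (-0.28 without GFP1). Polrmt, the mitochondrial RNA polymerase, and Tfb2m, its initiation factor, were lowest at -0.46 ± 0.23 and -0.25 ± 0.21 (-0.63 and -0.33 without GFP1), and Polg and Polg2, the subunits of the DNA polymerase, had log2 fold changes of 0.05 ± 0.12 and -0.004 ± 0.28 (0.03 and -0.11 without GFP1).

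Regulators of nuclear mitochondrial genes were spread on both sides of 0. The 9 genes had a median of 0.01 (-0.02 without GFP1). Esrra, a nuclear receptor that drives oxidative metabolism, had 75.0 and 54.2 CPM in SRF-OE against 71.4, 117 and 119 CPM in GFP, where GFP1 lay between the SRF-OE values (-0.67 ± 0.26, and -0.86 ± 0.18 without GFP1, adjusted p = 0.0565, edgeR). Gabpa, the ETS subunit of GABP, had a value of -0.22 ± 0.15 and its partner Gabpb1 0.31 ± 0.18 (-0.28 and 0.39 without GFP1). Myc had 0.52 ± 0.43, and 0.95 ± 0.37 without GFP1 (adjusted p = 0.164, edgeR).

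Ribosomal proteins of the cytosol stood on the other side. The 75 of them that were tested had a median log2 fold change of 0.16 (0.28 without GFP1), with 10 below 0, and summed to 5353 and 6016 CPM in SRF-OE and 5848, 4697 and 4943 CPM in GFP, where GFP1 lay between the SRF-OE sums. Nuclear subunits of respiratory complex I had the same median as the members, -0.25 over 35 genes (-0.26 without GFP1), with 33 below 0. No test of a difference between lists was made.

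**Figure D5:**
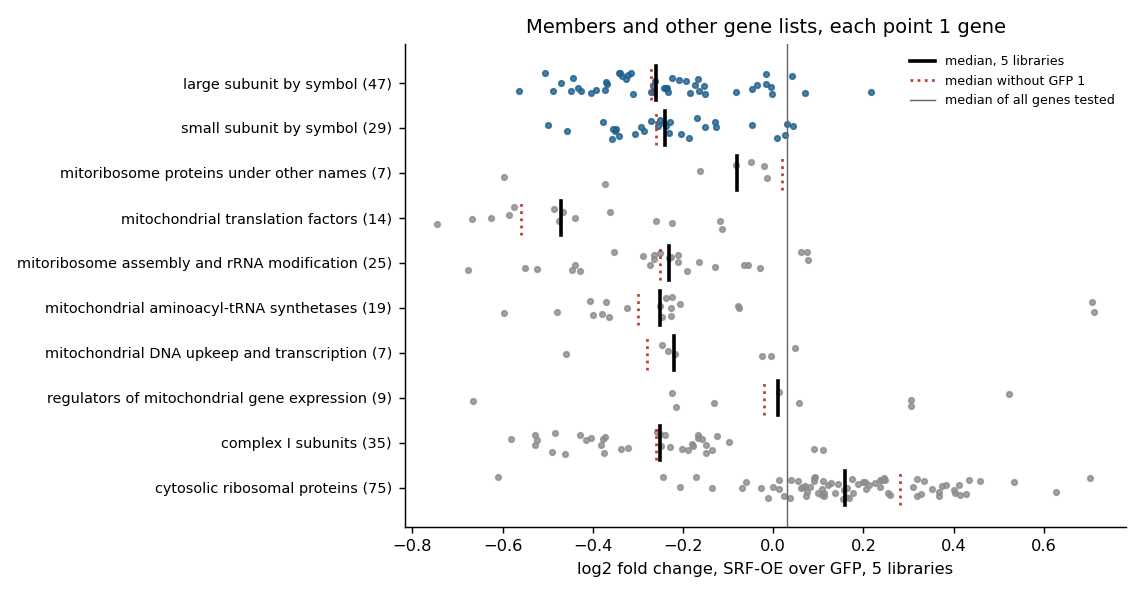
Log2 fold change (SRF-OE over GFP, 5 libraries) of every gene tested in 10 lists, the number of genes in brackets, with the list median as a black bar, the median without GFP 1 as a red dotted bar and the median of all genes (0.03) as a grey line. Members of both subunits, translation factors and complex I subunits lie mostly to the left of the line, and cytosolic ribosomal proteins mostly to the right.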

How the data were processed

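The labels give AAV9-transduced, GFP-sorted mouse CMs. Per the labels, libraries were made with SMART-Seq v4 and Nextera XT, and the submitters' processing notes name CASAVA 1.8, STAR 2.5.3a, featureCounts in Subread 1.5.2 and the mm10 build. The strand setting and annotation are not given in the sources used here. The deposited values are whole counts of reads per gene, not normalized by the authors. The column headed OE1 held a gene length in bases (smallest value 20, no zeros), so SRF-OE replicate 1 was not analysed here. Libraries had 14137433 to 23159631 counts.

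Genes were filtered with filterByExpr, scaled by TMM and tested with edgeR 4.0.16 (quasi-likelihood, Benjamini-Hochberg over 13754 genes, threshold 0.05) in R 4.3.3 with limma 3.58.1, and the script was tested on simulated data. Standard errors are the log2 fold change over the square root of F. Alternatives were DESeq2 1.42.0, other scalings and filters, a replicate block and leaving out each library. Named genes are Srf, the 6 lowest and 6 highest members, up to 10 members of smallest p, those of highest and lowest level per kb, the Mrps18 paralogs, Mrpl12, Mrps36, ribosome proteins under other names and the 2 lowest and 2 highest genes of each mitochondrial list except complex I, of which 1 is not reported here. The members and lists were chosen with earlier results of these data known. Positions and promoters are from GENCODE M21 and RefSeq on GRCm38, used for names, overlaps and sequences.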

Additional observations from a re-analysis of the deposited data

How the results depend on the processing

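The distance of the members from the median of all genes stayed between -0.32 and -0.23 in the reported fit and the 21 alternatives tried, and of 24 named members 18 kept their sign in all alternatives run for them. With library totals in place of TMM, the medians were -0.06 for the members (-0.07 for Mrpl, -0.06 for Mrps), and -0.03, -0.05 and -0.03 without GFP1. On that scale 2 of the 76 members were lower at an unadjusted p under 0.05 (edgeR), against 2.53% of all genes. Without GFP1 these were 5 members, against 5.67% of all genes. Both SRF-OE libraries lay below every GFP library in 25 members, against 7.4% of all genes. The other lists then had medians of 0.10 (ribosome proteins under other names), -0.28 (translation factors), -0.04 (assembly), -0.06 (synthetases), -0.03 (DNA upkeep) and 0.20 (regulators). Of single genes, that scaling turned Aurkaip1 (0.13), Chchd1 (0.16), Gadd45gip1 (0.10), Ict1 (0.03), Mrp63 (0.16), Mrpl17 (0.03), Mtif3 (0.06), Mtrf1 (0.07) and Polg2 (0.19). Members lower at the adjusted threshold were 1 with DESeq2 (Mrpl42, of 10 with an adjusted p, against 19.7% of all such genes) and, without GFP1, 6 with DESeq2 (against 6.16%), 2 with DESeq2 without independent filtering (against 3.22%) and 15 with edgeR without a filter (against 6.09%). These and the other 4-library alternatives were run for the counts and medians of the members, and they, the library totals and DESeq2 without independent filtering were added after the data were seen.

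Leaving out each library in turn gave 2 to 31 members lower at an unadjusted p under 0.05. The 31 came without GFP replicate 1 (against 14% of all genes), 9 without SRF-OE replicate 2 (6.42%), 5 without SRF-OE replicate 3 (2.48%), 6 without GFP replicate 2 (2.46%) and 2 without GFP replicate 3 (2.44%), and where 1 SRF-OE library remained it was taken to vary like the GFP libraries. List medians then ran from -0.17 to 0.02 (ribosome proteins under other names), -0.33 to -0.18 (assembly), -0.34 to -0.21 (synthetases), -0.28 to -0.09 (DNA upkeep, -0.09 without GFP replicate 3) and -0.02 to 0.15 (regulators). Single genes that changed sign ran from -0.12 to 0.02 (Aurkaip1), -0.17 to 0.12 (Chchd1), -0.17 to 0.03 (Gadd45gip1), -0.09 to 0.03 (Mrp63), -0.08 to 0.15 (Mrpl23), -0.02 to 0.15 (Mrpl54), -0.09 to 0.15 (Mrps10), -0.04 to 0.12 (Mrps18c), -0.0099 to 0.09 (Mrps6), -0.15 to 0.13 (Polg2) and -0.17 to 0.28 (Ybey).

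Upper quartile scaling gave a median of -0.04 for the ribosome proteins under other names, and turned Chchd1 (0.03), Mrp63 (0.02) and Polg2 (0.05). A minimum of 10 counts in every library turned Chchd1 (0.0091), Mrp63 (0.0016) and Polg2 (0.02). With the replicate number as a block, which only replicates 2 and 3 can form, the median of the ribosome proteins under other names was 0.01, and Aurkaip1 (0.01), Chchd1 (0.10), Gadd45gip1 (0.02), Mrp63 (0.02) and Mrps10 (-0.02) changed sign. Of 13754 genes the block called 432 lower (3.14%) and 582 higher, 0 members among them. At an unadjusted p under 0.05 (edgeR) it had 26 members lower, against 13.8% of all genes. Of the other named genes it called Srf (adjusted p = 0.00475, edgeR), Mrm1 (0.029), Lrpprc (0.0328), Esrra (0.0328) and Ptcd3 (0.0398). The deviations of equal numbers correlated at 0.372 for number 2 and -0.06 for number 3 with 5 libraries. Without GFP1 the correlation was 0.202 for number 2. The number was not taken as a pairing, although by the sex genes libraries of equal number shared their sex. The cause of these changes was not tested. The lowest count of any member in a library was 230, and what more depth or more libraries would change was not tested.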
